A study of Mus musculus with 23 samples.

Results

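The 10 genes described here, Hif1a, Vhl, Egln1, Egln3, Vegfa, Bnip3, Hk2, Ldha, Pdk1 and Slc2a1, belong to the hypoxia response that the CUL2-VHL ubiquitin ligase controls. They were taken by name, by matching the Ensembl identifiers of the count tables to the GRCm39 annotation, and each matched 1 of the 56941 genes listed. RNA had been sequenced from primary hippocampal neurons of newborn homozygous Nedd8cKO mice, a line made by CRISPR in FVB/N zygotes and given as C57BL/6N in the study's reporting summary, in which CRE recombinase inactivates Nedd8. Control cultures received lentivirus encoding RFP and Nedd8-deficient cultures lentivirus encoding CRE with RFP, in both cases from the Synapsin1 promoter, which is active in neurons, so other cells of the culture were not expected to recombine. All cultures carried the floxed allele. The virus was added on day 1 in vitro, and the labels give 12 days in culture at harvest while the study's methods give day 13. There were 23 libraries, 12 CRE and 11 RFP, of which 11 CRE and 10 RFP libraries entered the comparison, namely those of the study's own count table.

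Cells sense oxygen through prolyl hydroxylases of the EGLN family, which modify the alpha subunit of the hypoxia-inducible factor HIF when oxygen is present. VHL recognises the hydroxylated subunit as part of a ligase built on the cullin CUL2, and the subunit is degraded. Cullins are the best known proteins modified by NEDD8, and the modification activates their ligases. When HIF accumulates, it raises transcription of genes for glucose uptake, glycolysis, the diversion of pyruvate from oxidation, removal of mitochondria and vessel growth, and also of several of its own regulators. The alpha subunit is controlled mainly as a protein, so its RNA is not a measure of HIF activity. No protein was measured in the data used here.

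HIF binds DNA at a short core motif, searched here as ACGTG or GCGTG on either strand (CACGT or CACGC when read from the other strand), in the 300 bases before the start of the Ensembl canonical transcript of each gene. For Hif1a, Ldha and, by 17 bases, Hk2 other annotated transcripts start farther upstream, so that the window lies inside the gene there. The palindrome CACGTG was counted once per strand. The motif was present in the window of 7 of the 10 genes, against that of 57.5% of the 12970 protein-coding genes that were tested for expression and 45.1% of all 21769 protein-coding genes. Its 5-letter length makes it common, and a match is a description of the sequence and not a binding site. The upstream sequences of 4 genes are shown, those with the most matches and those of the genes that were higher in CRE. Ldha held 6 matches and Bnip3 5, the most of the 10, and neither passed the test for a difference in RNA, whereas Slc2a1 held 1 and Hk2 3, and both were higher in CRE. Vhl and Pdk1, which were lower in CRE, and Vegfa held none in this window. The stretches below are GRCm39, on the strand of the gene, with the motif in capitals. They end at the base before the start of that transcript, except that the last 131 bases of Ldha and the last 17 of Hk2, which are exon in other transcripts of the same gene, are not shown. The Ldha stretch therefore holds 2 of its 6 matches. They lie at chr4:118965608-118965907 (Slc2a1, plus strand), chr6:82751470-82751752 (Hk2, minus strand), chr7:46494963-46495131 (Ldha, plus strand) and chr7:138511254-138511553 (Bnip3, minus strand).
Slc2a1: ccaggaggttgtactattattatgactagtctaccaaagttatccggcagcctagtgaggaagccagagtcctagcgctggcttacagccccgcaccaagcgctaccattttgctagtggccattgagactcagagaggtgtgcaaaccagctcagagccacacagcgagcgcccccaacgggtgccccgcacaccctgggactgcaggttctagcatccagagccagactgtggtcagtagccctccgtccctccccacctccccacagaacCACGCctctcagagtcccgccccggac
Hk2: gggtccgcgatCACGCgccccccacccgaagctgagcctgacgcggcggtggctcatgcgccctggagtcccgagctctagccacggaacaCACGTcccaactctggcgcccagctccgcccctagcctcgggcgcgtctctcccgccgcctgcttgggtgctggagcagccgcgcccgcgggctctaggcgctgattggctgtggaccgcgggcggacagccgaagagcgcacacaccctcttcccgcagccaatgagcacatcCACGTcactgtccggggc
Ldha: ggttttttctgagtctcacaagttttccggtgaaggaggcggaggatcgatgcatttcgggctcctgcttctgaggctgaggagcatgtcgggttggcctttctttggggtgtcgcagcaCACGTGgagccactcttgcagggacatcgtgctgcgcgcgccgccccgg
Bnip3: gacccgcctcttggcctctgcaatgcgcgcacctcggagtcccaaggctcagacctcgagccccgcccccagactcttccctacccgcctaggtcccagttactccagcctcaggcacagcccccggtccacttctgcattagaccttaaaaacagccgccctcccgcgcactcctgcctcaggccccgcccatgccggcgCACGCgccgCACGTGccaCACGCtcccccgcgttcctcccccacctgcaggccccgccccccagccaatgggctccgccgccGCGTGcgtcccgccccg

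Total counts per library ran from 7430401 to 13345552 in the CRE and from 9833872 to 17112815 in the RFP libraries of the comparison. The number after CRE or RFP in a library name is read here as the culture, which neither the labels nor the study's text say in words. Nothing says that libraries of the same culture came from separate animals. For these RNA values the study counts fewer animals or biological replicates than libraries. The p-values therefore measure the spread between libraries. CRE 1-3, RFP 2-4 and CRE 3-3 stood apart. Mitochondrial genes took 0.261%, 3.43% and 1.83% of their counts, against 6.997% to 11.1% in the other 20 libraries, and their values rose with the GC content of the genes. CRE 3-3, with 1546796 counts, was not part of the comparison, nor was RFP 3-2, while CRE 1-3 and RFP 2-4 were. Values are therefore given with and without the latter pair where it matters. Nedd8 itself was measured at 5.92 to 18.0 CPM (normalised read counts, scaled to library size with TMM factors; median 12.1) in CRE and at 44.1 to 76.0 (median 62.4) in RFP libraries, so that the groups did not overlap. Its log2 fold change was -2.44 (SE 0.17, adjusted p = 6.98e-11).

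The comparison asks whether loss of Nedd8 moved the RNA of this pathway. With the quasi-likelihood test of edgeR, adjusted by Benjamini-Hochberg over the 14488 genes tested, 4 of the 10 genes passed an adjusted p under 0.05, and 30.2% of all genes tested did. Slc2a1, which encodes the glucose transporter GLUT1, and Hk2, which encodes the hexokinase that traps glucose in the cell, were higher in CRE, as were 16.4% of all genes tested. Vhl and Pdk1 were lower, as were 13.8%. Scaling by total counts alone moved the median of all genes to 0.11 on the log2 scale and the split of all calls from 2374 higher and 1996 lower to 2949 and 1533, with the same 2 and 2 members. Hif1a, Egln1, Egln3, Ldha, Bnip3 and Vegfa did not pass. On GRCm39 the genes that passed lie at chr4:118965908-118996365 (Slc2a1), chr6:82699740-82751469 (Hk2), chr6:113600920-113608599 (Vhl) and chr2:71703488-71734202 (Pdk1), and the counts cover their exons. The members' median log2 fold change was -0.08, beside 0.02 over all genes tested. All 10 were well counted, with the lowest count in any library of the comparison at 45 (Hk2).

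**Figure D1:**
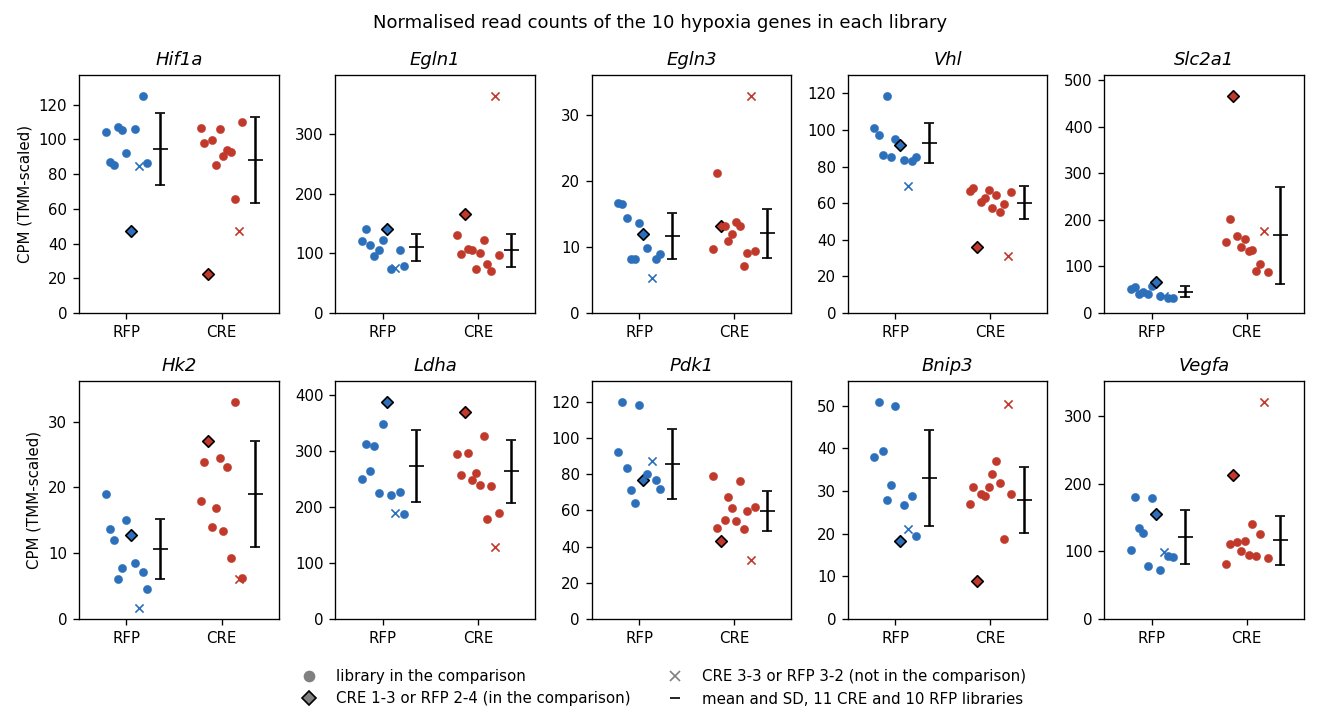
Normalised read count (CPM, linear axis from 0) of each of the 10 genes in each library, RFP in blue and CRE in red, with the libraries of each group ordered by culture from left to right. Black bars give the mean and SD of the 11 CRE and 10 RFP libraries in the comparison. Every CRE point of Slc2a1 lies above every RFP point and, in the comparison, every CRE point of Vhl lies below, while the other genes overlap.

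Among the sensors, Egln1 encodes PHD2, the main oxygen sensor, and Egln3 encodes PHD3, which HIF itself induces strongly in many cells. Egln1 ran from 70.4 to 166.3 CPM (median 99.9) in CRE and from 73.0 to 141.6 CPM (median 110.1) in RFP libraries. Egln3 was measured at 7.09 to 21.1 CPM (median 11.9) in CRE and 8.09 to 16.7 CPM (median 10.9) in RFP libraries. Both genes overlapped almost completely between the groups. The log2 fold change was -0.08 for Egln1 (95% confidence interval -0.38 to 0.21, adjusted p = 0.712) and 0.03 for Egln3 (-0.37 to 0.43, adjusted p = 0.932). CRE 3-3, outside the comparison, held the highest value of both, at 363.5 and 32.7 CPM, and with all 23 libraries the log2 fold changes were 0.23 and 0.28, still without passing the test. The third hydroxylase, Egln2, and the asparagine hydroxylase Hif1an, which blocks the transcriptional activity of HIF, made up the list of other sensors, of which 0 of 2 passed in edgeR. Hif1an, at a log2 fold change of 0.26, had an unadjusted p of 0.0187 and an edgeR adjusted p of 0.0590, and it was the 1 of 2 that passed with DESeq2 (adjusted p = 0.0382), 1 of 9 alternatives of 38 in which it passed.

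Hif1a, the gene for the regulated alpha subunit, ran from 22.3 to 109.9 CPM (median 93.6) in CRE and from 47.0 to 124.8 CPM (median 98.3) in RFP libraries. The lowest value of each group belonged to CRE 1-3 and RFP 2-4, and without them the CRE libraries averaged 94.7 CPM and the RFP libraries 99.9 CPM. The log2 fold change was -0.12 (-0.51 to 0.27, adjusted p = 0.686) and -0.09 without the pair. A gene on the opposite strand overlaps 695 bases of the Hif1a exons, and the strand setting of the counting is not given in the sources used here.

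Vhl encodes the substrate receptor of the ligase. It ran from 35.96 to 68.3 CPM (median 62.7) in CRE and from 82.9 to 118.3 CPM (median 88.9) in RFP libraries. All 11 CRE libraries lay below all 10 RFP libraries, which held for 2.08% of the genes tested. The mean was 60.3 ± 9.16 CPM (SD, n = 11) against 92.7 ± 10.9 CPM (n = 10), a log2 fold change of -0.64 (SE 0.10, adjusted p = 4.06e-05). Within cultures 1, 2 and 3 the log2 ratio of the mean CPM was -0.71, -0.63 and -0.48. RFP 3-2, outside the comparison, had 69.3 CPM, just above the highest CRE library. Among the other subunits of the ligase, Rbx1, the RING protein that binds the ubiquitin-conjugating enzyme, fell by 0.53 on the log2 scale (SE 0.13, adjusted p = 0.00345), from 93.8 ± 7.36 to 65.8 ± 16.6 CPM, with 10 of 11 CRE libraries below every RFP library. Rbx1 serves other cullins as well. The scaffold Cul2 (log2 fold change 0.03, adjusted p = 0.927) and the adaptors Elob (0.11, adjusted p = 0.723) and Eloc (-0.37, adjusted p = 0.292) did not pass, although Eloc did without CRE 1-3 and RFP 2-4 (adjusted p = 0.0200) and with counts summed per culture (0.0464), and the signs for Cul2 and Elob depended on the libraries used.

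Slc2a1 showed the largest difference of the 10 genes. It ran from 87.7 to 465.3 CPM (median 142.3) in CRE and from 31.3 to 66.1 CPM (median 43.6) in RFP libraries. All 11 CRE libraries lay above all 10 RFP libraries, which held for 2.64% of the genes tested. The log2 fold change was 1.85 (SE 0.24, adjusted p = 1.65e-06), a 3.60-fold difference (95% confidence interval 2.56 to 5.07). The maximum belonged to CRE 1-3, the library with the lowest mitochondrial share, and the next highest CRE library had 202.3 CPM. Without CRE 1-3 and RFP 2-4 the log2 fold change was 1.64 (adjusted p = 9.77e-09). The log2 ratio of the mean CPM was 2.31, 1.45 and 1.52 within cultures 1, 2 and 3, and 1.80 in culture 1 without CRE 1-3. The libraries outside the comparison, CRE 3-3 at 175.3 and RFP 3-2 at 37.2 CPM, fell on the same sides. A gene on the opposite strand overlaps 249 bases of the Slc2a1 exons.

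Hk2 ran from 6.28 to 32.9 CPM (median 17.9) in CRE and from 4.54 to 19.05 CPM (median 10.2) in RFP libraries. The groups overlapped, with 5 of 11 CRE libraries above every RFP library and 9 above the RFP median. The mean was 19.01 ± 8.05 CPM against 10.7 ± 4.58 CPM, a log2 fold change of 0.81 (SE 0.27, adjusted p = 0.0236). Without CRE 3-2, which held the highest value, the log2 fold change was 0.68 and the adjusted p 0.0602. The call of Hk2 was also lost without culture 2 (adjusted p = 0.195) or culture 3 (0.0560) and with counts summed per culture (0.0593). Both groups were lower in culture 3 than in culture 1, apart from CRE 3-2. The log2 ratio of the mean CPM was 0.47, 0.90 and 1.26 in cultures 1, 2 and 3. The culture 3 value rests on CRE 3-2 at 32.9 CPM. The other CRE libraries of culture 3 in the comparison had 9.30 and 6.28 CPM, against 4.54 to 8.46 CPM in the RFP libraries compared there.

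Ldha encodes the lactate dehydrogenase subunit that favours lactate formation and is a standard readout of HIF. It ran from 178.8 to 370.3 CPM (median 257.3) in CRE and from 186.8 to 387.1 CPM (median 257.8) in RFP libraries. The medians were nearly the same, and the log2 fold change was -0.07 (-0.36 to 0.21, adjusted p = 0.742). Of its 50-base stretches, 4.6% are shared with other genes of the annotation, so its counts carry that uncertainty.

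Pdk1 encodes a kinase that inactivates pyruvate dehydrogenase and so limits the oxidation of pyruvate. It ran from 42.8 to 78.9 CPM (median 59.4) in CRE and from 63.8 to 119.6 CPM (median 78.5) in RFP libraries. Of the CRE libraries, 8 of 11 lay below every RFP library. The log2 fold change was -0.54 (SE 0.13, adjusted p = 0.00217), opposite in sign to that of Slc2a1 and Hk2, and the log2 ratio of the mean CPM was -0.80, -0.35 and -0.42 in the 3 cultures.

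Bnip3, whose product marks mitochondria for removal, ran from 8.86 to 37.0 CPM (median 29.3) in CRE and from 18.4 to 50.8 CPM (median 30.1) in RFP libraries. The lowest values were again those of CRE 1-3 and RFP 2-4. Its log2 fold change was -0.26 (-0.69 to 0.16, adjusted p = 0.362), and the log2 ratio of the mean CPM was -0.83 in culture 1, against 0.04 and 0.09 in cultures 2 and 3. Without CRE 1-3 and RFP 2-4 this ratio was -0.56 in culture 1 and -0.15 in culture 2. The interaction of CRE with culture, tested over all genes, gave 1 gene of 14488 and none of the 10 members, whose lowest adjusted p was 0.977. In Bnip3, 14.5% of 50-base stretches are shared with other genes.

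Vegfa, the main growth factor for blood vessels, ran from 80.8 to 212.5 CPM (median 110.7) in CRE and from 72.8 to 180.0 CPM (median 114.1) in RFP libraries. The log2 fold change was -0.08 (-0.45 to 0.29, adjusted p = 0.785). CRE 3-3, outside the comparison, was the highest of all libraries at 319.9 CPM, and the sign turned with all 23 libraries (0.15).

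**Figure D2:**
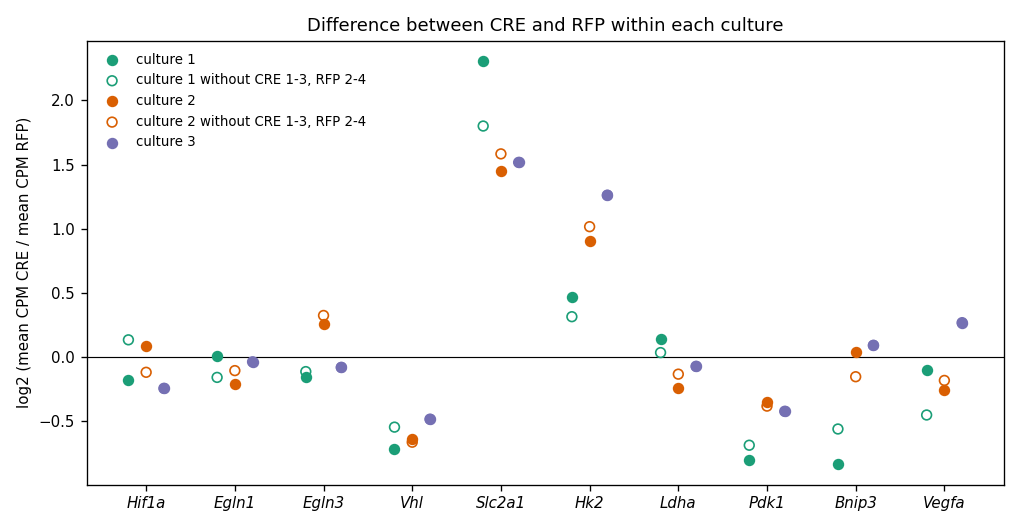
Log2 ratio of the mean CPM of CRE to the mean CPM of RFP libraries for each of the 10 genes within cultures 1, 2 and 3, with open circles for the value without CRE 1-3 or RFP 2-4. Slc2a1 and Hk2 lie above 0 and Vhl and Pdk1 below 0 in each culture, while each of the other 6 genes has filled circles on both sides of 0. The height of the culture 3 circle of Hk2 rests on CRE 3-2. The open circles of Egln1 all lie below 0.

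Levels were compared between genes as CPM per kilobase of annotated exon. In RFP libraries Ldha led at 57.7 ± 13.5 (SD), followed by Vegfa at 28.1 ± 9.33 and Vhl at 22.2 ± 2.62, which differed by less than the SD of Vegfa. Egln1, Hif1a, Slc2a1, Pdk1 and Bnip3 followed between 12.3 and 7.65, each within an SD of its neighbour in that order. Egln3 at 4.32 ± 1.29 and Hk2 at 1.29 ± 0.554 came last. In CRE libraries Slc2a1 moved from the sixth to the second place, at 35.7 ± 22.3, within an SD of Ldha at 55.7 ± 11.9, and Hk2 stayed last at 2.30 ± 0.974. That closeness to Ldha rests on CRE 1-3. Without this library the CRE means were 137.5 ± 35.6 CPM for Slc2a1 and 253.2 ± 46.4 CPM for Ldha, farther apart than either SD. The annotated exons of these genes have similar lengths (4691 and 4738 bases).

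Several of the 10 genes have a close relative that does the same reaction, and the log2 ratio of the counts of both genes within a library does not depend on its scaling. Of 7 ratios tested with permutation tests (100000 resamples, two-sided, adjusted over the 7), 4 differed between the groups. The ratio of Slc2a1 to Slc2a3, the neuronal glucose transporter GLUT3, was -0.17 ± 0.90 (SD, n = 11) in CRE and -2.17 ± 0.24 (n = 10) in RFP libraries, a difference of 2.01 with an unadjusted permutation p of 2e-05, the smallest these resamples can give. The ratio of Hk2 to the constitutive Hk1 was higher in CRE by 0.94 (permutation test, adjusted p = 0.00906), with adjusted p = 0.0530 in the same permutation test over all 23 libraries and 0.170 without culture 2. The ratio of Ldha to Ldhb, the subunit that favours pyruvate, was 0.27 ± 0.39 in CRE and 1.42 ± 0.47 in RFP libraries, so it was lower in CRE (difference -1.15, permutation test, adjusted p = 0.00042). The ratio of Pdk1 to Pdk2 was also lower (difference -1.01, permutation test, adjusted p = 0.00042). Bnip3 against Bnip3l (-0.20, adjusted p = 0.224), Egln3 against Egln1 (0.13, adjusted p = 0.567) and Vegfa against Vegfb (0.02, adjusted p = 0.938) did not pass in the same permutation tests.

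**Figure D3:**
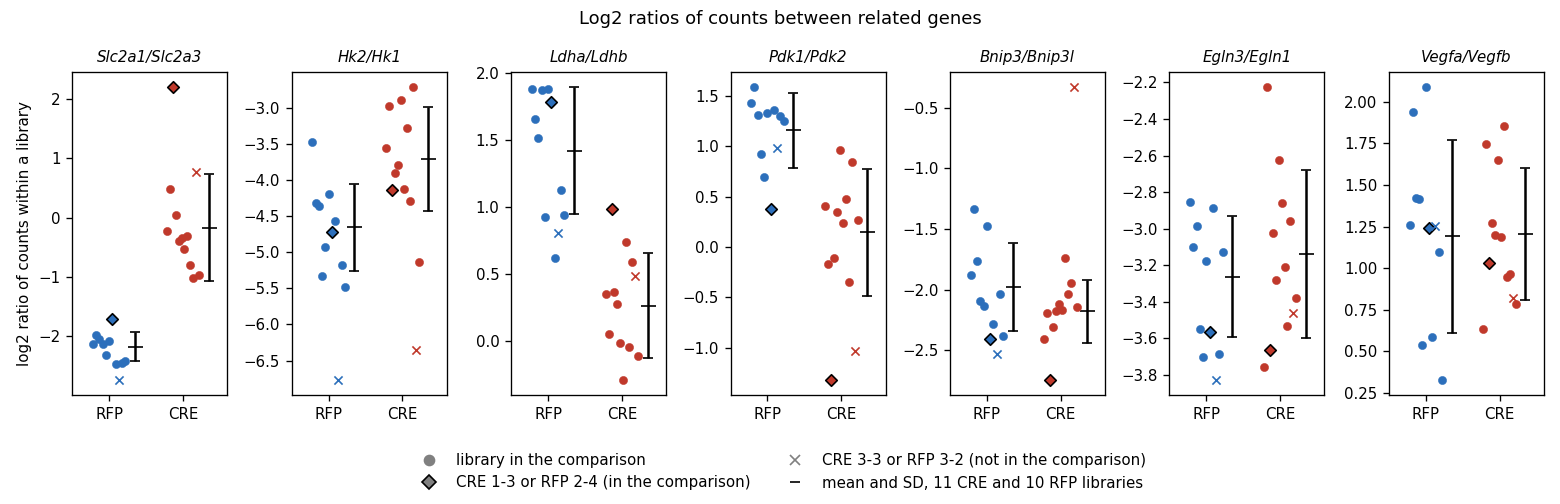
Log2 ratio of the counts of related genes within each library (0.5 added to each count), RFP in blue and CRE in red, with black bars for the mean and SD of the 11 CRE and 10 RFP libraries in the comparison. The vertical scale differs between panels. The CRE and RFP points of Slc2a1/Slc2a3 do not overlap, and those of the other ratios do.

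The relatives were a list of 12 genes, of which 4 rose and 1 fell in CRE, 41.7% of the list beside 30.2% of all genes tested. Ldhb rose from 101.7 ± 20.5 to 218.0 ± 39.5 CPM (1.082 on the log2 scale, SE 0.12, adjusted p = 2.96e-07). Every CRE library lay above every RFP library, which held for 2.64% of the genes tested. Ldha, as given above, did not pass. Pdk4, the isoform induced by fasting and fatty acid use, ran from 3.59 to 28.8 CPM (median 20.95) in CRE and from 1.21 to 6.54 CPM (median 1.77) in RFP libraries. Its log2 fold change of 2.81 (SE 0.36, adjusted p = 1.12e-06) was thus opposite in sign to that of Pdk1, and all RFP libraries were exceeded by 10 of 11 CRE libraries. Pdk2 rose by 0.53 (adjusted p = 0.0217), but the value was 0.02 as a log2 ratio of mean CPM within culture 2 against 0.98 and 0.68 in the other 2 cultures. Pdk3 did not pass (0.27, adjusted p = 0.301). Of the VEGF genes, Vegfd, a lymphatic vessel factor, fell from 9.17 ± 4.43 to 1.72 ± 0.933 CPM (log2 fold change -2.42, adjusted p = 6.19e-06), and Vegfc, its close relative, rose from 1.62 ± 0.767 to 3.72 ± 1.398 CPM (1.18, adjusted p = 0.00617), both at low levels. Slc2a3 (-0.26, adjusted p = 0.0807), Hk1 (-0.11, adjusted p = 0.641), Bnip3l (-0.02, adjusted p = 0.922), Vegfb (-0.02, adjusted p = 0.935), Pgf (-1.07, adjusted p = 0.178) and Egln2 (0.24, adjusted p = 0.405) did not pass. Slc2a3 passed in 8 of 38 alternatives, namely over all 23 libraries (adjusted p = 0.0485), with the libraries left by the study's methods (0.0439), with the GC trend removed (0.0192), without culture 3 (0.0452) and when CRE 2-1, CRE 2-2, CRE 2-3 or CRE 3-2 was left out. Hk1 passed in 3 of 38, without CRE 1-3 and RFP 2-4 (0.0319), without CRE 1-3 alone (0.0165) and with the GC trend removed (0.0340).

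The other HIF subunits and co-regulators were 7 genes, of which 1 rose and 1 fell, 28.6% of the list beside the 30.2% of all genes. Cited2, which competes with HIF for its coactivators and is itself a HIF target, rose from 71.3 ± 17.2 to 175.7 ± 29.0 CPM (log2 fold change 1.28, SE 0.13, adjusted p = 2.83e-08). The groups did not overlap, and every CRE library lay above every RFP library for 2.64% of the genes tested. Epas1, which encodes the alpha subunit of HIF2, fell from 148.7 ± 42.8 to 66.8 ± 27.0 CPM (-1.18, SE 0.23, adjusted p = 0.000392), with 7 of 11 CRE libraries below every RFP library. Hif3a, Arnt, Arnt2, Crebbp and Ep300 did not pass. Arnt2, a partner of the alpha subunits in neurons, was at -0.23 (adjusted p = 0.0740) and passed in 8 of 38 alternatives, and Ep300 in 1.

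Of 15 further glycolysis genes, 3 rose, 1 fell and 11 did not pass, 26.7% of the list beside 30.2% of all genes, and their median log2 fold change was 0.06. Pfkfb4, a regulator of the flux at phosphofructokinase, rose from 11.5 ± 2.57 to 20.9 ± 6.88 CPM (0.84, adjusted p = 0.000904). Pkm, the last enzyme of the pathway, rose from 649.8 ± 61.1 to 1041 ± 333.1 CPM (0.66, adjusted p = 0.000558). CRE 1-3 had 1944 CPM of Pkm, and the other CRE libraries of the comparison 668.3 to 1149 CPM. The log2 ratio of its mean CPM was 1.01, 0.61 and 0.27 in cultures 1, 2 and 3, and 0.72 in culture 1 without CRE 1-3. Eno1 (0.55, adjusted p = 0.0472) and the astrocyte-rich Aldoc (-0.64, adjusted p = 0.0490) were at the threshold, and the call was lost on leaving out any of 17 and of 15 of the 21 libraries. CRE 1-3 had 980.8 CPM of Eno1, and the other CRE libraries of the comparison at most 316 CPM. In culture 1 the log2 ratio of the mean CPM of Eno1 was 0.97, and 0.32 without CRE 1-3. The rest of the chain, with Gpi1, Pfkl, Pfkp, Aldoa, Tpi1, Gapdh, Pgk1 and Pgam1, did not pass, although Pfkl did in 4 of 38 alternatives and Pfkp in 1. Several of these enzymes share sequence with other genes, with 51.8% of the 50-base stretches of Pgk1 and 28.8% of those of Aldoa found elsewhere. The same holds for genes that were called, with 21.2% for Pkm and 10.8% for Eno1. Another gene on the same strand overlaps 3157 bases of the Pkm exons. Of 5 mitochondrial targets, 3 were tested and 0 passed in edgeR, with 0 at an unadjusted p under 0.05 and 0 by DESeq2. These were Bnip3l, Higd1a and Fam162a, and Ndufa4l2 and Cox4i2 were too low to be tested.

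Targets with a role in vessels, matrix, signalling and storage of glycogen were 23 genes, of which 20 were tested, 8 rose and 2 fell. Thus 10 of the 20 were called beside 30.2% of all genes, and their median log2 fold change was 0.51. This list, like the others, was chosen with earlier results of these data known, so its share is a description only. Adm, which encodes the vasodilator adrenomedullin, differed most, from 0.303 to 11.8 CPM (median 2.04) in RFP to 9.88 to 41.4 CPM (median 21.1) in CRE libraries. The log2 fold change of Adm was 2.67 (SE 0.45, adjusted p = 5.08e-05), and 9 of 11 CRE values exceeded all RFP values. Stc2, a secreted glycoprotein, rose by 1.09 (adjusted p = 0.00809), with its highest value, 153.3 CPM, in CRE 3-2. The other CRE libraries of culture 3 in the comparison had 25.1 and 29.1 CPM of Stc2, against 24.6 to 54.7 CPM in the RFP libraries compared there. Bhlhe40, a transcriptional repressor, rose by 0.90 (adjusted p = 9.06e-05). All its CRE libraries lay above all RFP libraries, which held for 2.64% of the genes tested. Car12, a membrane carbonic anhydrase, fell by 0.95 (adjusted p = 0.00279), and Ppp1r3c, which directs a phosphatase to glycogen, fell by 0.91 (adjusted p = 0.000772). The remaining 5 that rose were Plod2, Gys1, Mxi1, P4ha1 and Kdm3a, chosen here after their values were seen, with log2 fold changes from 0.48 to 0.81. Epo, Car9 and Angptl4 were too low to be tested, and Epo had 0 CPM in every library of the comparison. Of 4 receptors for VEGF, 3 were tested and 2 fell, 66.7% of those tested beside 30.2% of all genes. Nrp2 did not pass, and Flt1 was too low to be tested. Kdr fell by 1.22 (adjusted p = 0.0346) at 1.85 ± 0.993 against 4.30 ± 2.73 CPM, a call that was kept in 29 of 37 alternatives. It was lost with limma-voom (adjusted p = 0.0999), under both replicate blocks (0.0698 and 0.130), without culture 1 (0.394) or culture 3 and without RFP 1-1 (0.0835), RFP 1-3 (0.0685) or RFP 2-2 (0.0698). Nrp1, which also receives semaphorins, fell by 0.64 (adjusted p = 0.000275).

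**Figure D4:**
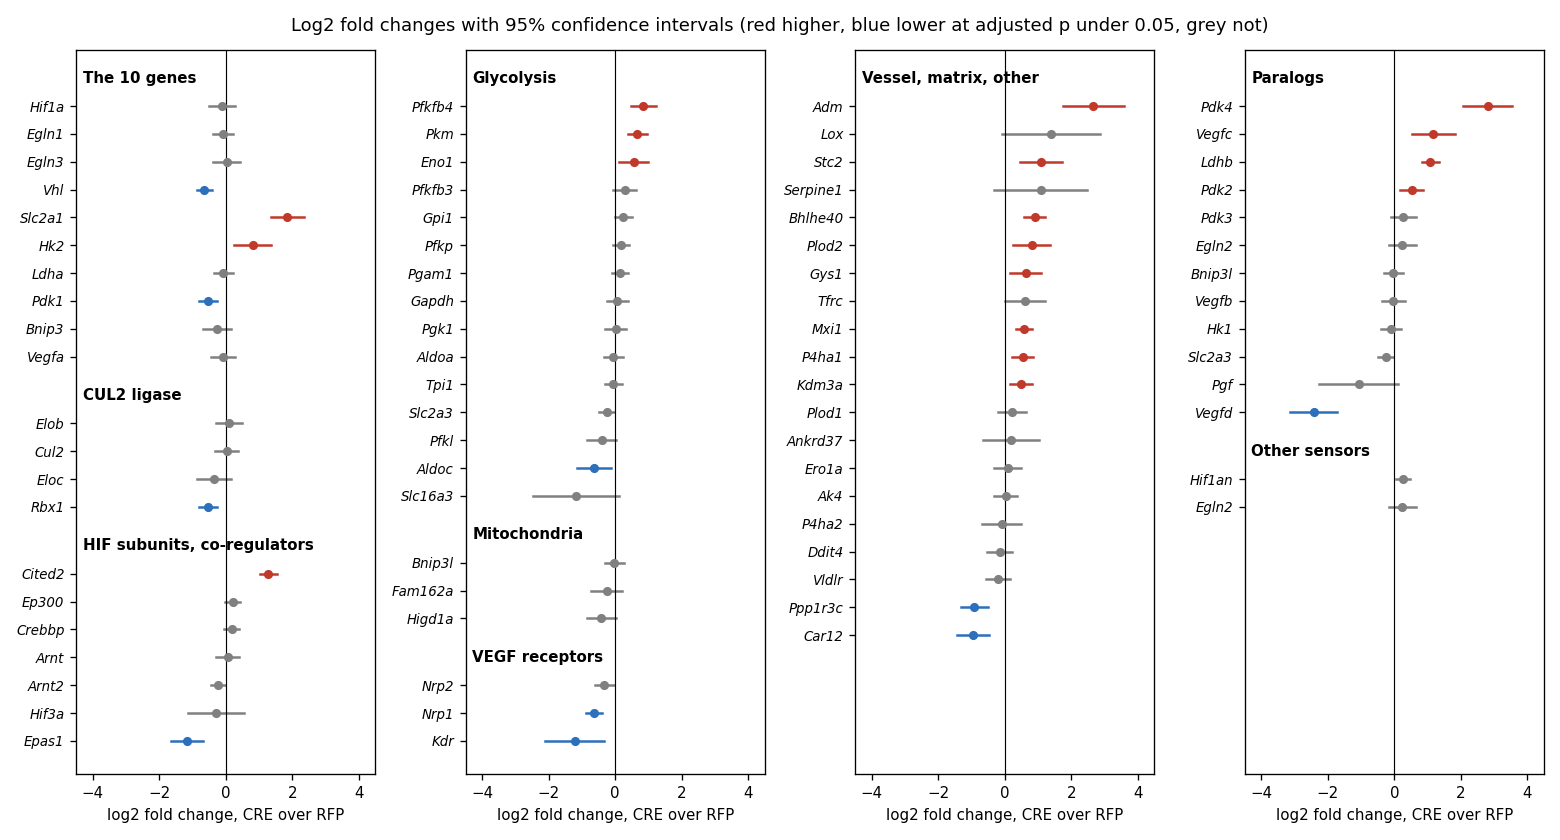
Log2 fold change of CRE over RFP with its 95% confidence interval for the 10 genes and every tested gene of the other pathway lists, red for higher and blue for lower at an adjusted p under 0.05 and grey otherwise. Among the 10 genes 2 are red and 2 blue, and Adm and Pdk4 lie farthest to the right.

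The libraries came from whole cultures, and in such samples fewer cells of a type and less RNA per cell cannot be told apart. Of 8 neuron markers 6 fell and 0 rose, 75.0% of the list beside 30.2% of all genes tested (16.4% higher and 13.8% lower). Their summed level was 2622 to 5778 CPM in CRE and 6169 to 7362 CPM in RFP libraries. The lowest neuron sum was that of CRE 1-3, and the next was 3393 CPM, of CRE 3-2. Syn1 was at -0.77 and Rbfox3 at -1.03 on the log2 scale. Of 8 astrocyte markers 2 rose, among them Sox9 (1.02), and 3 fell, among them S100b (-1.11), 62.5% of the list in all. Their sums were 1408 to 4453 CPM in CRE and 3086 to 6301 CPM in RFP libraries. The lowest astrocyte sum was that of CRE 3-2, the next, 2277 CPM, that of CRE 1-3, and the next after it 3012 CPM, of CRE 2-2. Of 8 markers of the oligodendrocyte lineage 5 fell, 62.5% of the list, with sums of 425.0 to 1910 and 646.8 to 1867 CPM. The highest of each group belonged to CRE 1-3 and RFP 2-4, and without them the sums reached 1009 CPM in CRE and 1716 CPM in RFP libraries. Their part in the differences of the 10 genes was not tested. Slc2a1 is known from vessel walls and astrocytes, and Vegfa and Adm act on vessels, so endothelial markers were read too. All 7 were too low to be tested, the highest group mean was 1.17 CPM, of Cdh5 in CRE libraries, and Cldn5 and Ly6c1 averaged 0 in RFP libraries. Microglial markers summed to 2.77 to 12.5 CPM over both groups, and of 8 markers 3 were tested and 1, Tmem119, rose (3.21). Mesenchymal markers summed to 14.3 to 380.0 CPM in CRE (to 176.1 CPM without CRE 3-1) and 15.4 to 142.8 CPM in RFP libraries, and 1 of 7, Pdgfrb, rose (0.81).

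For 9 of the 10 genes, the gene outside the list with the most similar levels was found by Spearman's correlation of log2 CPM after subtracting each group's mean, over 19 libraries without CRE 1-3 and RFP 2-4 and among 11490 genes. All points share the depth and scaling of their library, and the highest of so many values is given as a description. Culture means were not subtracted, so differences between cultures remain in these values. Egln1 was most like Raver2 (0.92) and Hk2 most like Hsd17b10 (0.90). Ldha was most like Adgra1 (0.85), Vegfa most like Tomm34 (0.84) and Egln3 most like the glycolysis enzyme Pgam1 (0.80). Bnip3 was most like Ero1a (0.83), an oxidase of the endoplasmic reticulum that is on the list of HIF targets. Hif1a was most like Enpp4 (0.79), Pdk1 most like Tmem231 (0.74) and Vhl most like Dhrs7 (0.73). Among the 10 genes themselves the highest value joined Slc2a1 and Ldha (0.80), although the former rose in CRE and the latter did not pass the test. Both genes had their lowest mean CPM in culture 3, in CRE and in RFP libraries. Hif1a had negative values with 8 of the other 9 genes, down to -0.49 with Vegfa.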

How the data were processed

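Poly(A) RNA libraries (Illumina Stranded mRNA Prep, NovaSeq6000) were aligned by the authors to GRCm39 with STAR 2.7.8a and counted per gene with featureCounts 1.5.0-p1, as the submitters' processing notes name them. The authors deposited these counts per gene without normalization. The strand setting and the treatment of multimapping reads are not given in the sources used here. The study's methods remove CRE 1-3 and CRE 3-3, whereas its count table leaves out CRE 3-3 and RFP 3-2. The 21 libraries of that table were compared, 11 CRE and 10 RFP, and other sets were alternatives.

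Counts were tested with edgeR 4.0.16 in R 4.3.3 (filterByExpr, TMM, robust glmQLFit, glmQLFTest), with DESeq2 1.42.0 and limma-voom 3.58.1 as alternatives. The script was tested on simulated data. Ratios were tested with scipy 1.17.1 and figures drawn with matplotlib 3.10.9. The named genes were the 10 members, Nedd8, the CUL2 ligase subunits, relatives of members, and up to 5 called genes of each other list with the largest changes. The gene most similar in level to each member was also named, except for Slc2a1, for which it is not reported here. The members and lists were chosen with earlier results of these data known. The 38 alternatives covered library sets, tools, scaling, filters, GC content, culture and replicate blocks, sums per culture, and cultures or libraries left out in turn. Upstream sequences, taken before the start of the Ensembl canonical transcript, and coordinates came from GRCm39 and the GENCODE M39 annotation.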

Additional observations from a re-analysis of the deposited data

Results flagged for a closer look

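In 6 of 40 genes the highest or lowest of the 10 RFP libraries lay far from the others by Dixon's test at the 95% level, which chance alone gives in about 5% of groups. The 11 CRE libraries were not put to this test, so their extreme values are not flagged here. Among them CRE 1-3 was the highest in Slc2a1 (465.3 CPM) and the lowest in Hif1a (22.3 CPM). RFP 2-4, which had a low mitochondrial share, was the lowest in Hif1a (47.0 CPM, others 85.3 to 124.8) and in Cul2 (21.3 CPM, others 46.6 to 66.5), and the highest in Pkm (809.6 CPM, others 580.8 to 662.2). RFP 3-1 was the highest in Adm (11.8 CPM, others 0.303 to 5.80) and in Stc2 (54.7 CPM, others 13.3 to 34.7). RFP 2-1 was the highest in Vhl (118.3 CPM, others 82.9 to 100.9), on the side away from the CRE libraries.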

How the results depend on the processing

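Of the 10 members 4 were called, and 3 or 4 under every alternative. Slc2a1, Vhl and Pdk1 passed in the same direction in all 38, with log2 fold changes of 1.46 to 2.13, -0.72 to -0.53 and -0.62 to -0.39. With counts summed per culture their edgeR adjusted p was 0.0145, 0.0013 and 0.0045. Hk2 passed in 34, and 1 member instead of 2 was called higher with counts summed per culture (adjusted p of Hk2 0.0593) and without culture 2 (0.195), culture 3 (0.0560) or CRE 3-2 (0.0602). Over cultures or libraries left out in turn, 1 to 2 members were called higher, 14 (without culture 2) to 28 (without CRE 1-3) genes of the wider lists were called, against 24 of 63, and 2114 to 5507 of all genes, 1311 to 2790 higher and 803 to 2717 lower, with the lowest values without culture 2 and the highest without CRE 1-3. Without culture 2 the calls of Vegfc (adjusted p = 0.0519), Epas1 (0.0577), Car12 (0.0713), Ppp1r3c (0.106) and Stc2 (0.132) were lost, and that of Pdk2 without culture 1 (0.312) or culture 3 (0.133) and with counts summed per culture (0.0686). Without a filter on low counts 6920 genes were called, 4367 of them higher. The causes were not tested beyond what fewer libraries or more genes tested imply.

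Values that did not pass the test turned sign in places. Over all 23 libraries the fold change, on the log2 scale, was 0.23 for Egln1, 0.15 for Vegfa, -0.055 for Cul2, 0.27 for Vegfb and 0.087 for Hk1, and the differences of the log2 ratios were 0.0030 for Bnip3 to Bnip3l and -0.022 for Vegfa to Vegfb. With the libraries left by the study's methods it was 0.016 for Hif1a, -0.12 for Elob and 0.069 for Bnip3l, and without CRE 1-3 and RFP 2-4 it was -0.15 for Elob and 0.013 for Bnip3l. With limma-voom Elob was at -0.033. With counts summed per culture Egln3 was at -0.040 and Elob at -0.047, and with the GC trend removed Egln3 was at -0.016, Elob at -0.016 and Bnip3l at 0.046. With total counts alone Ldha was at 0.0053, Vegfb at 0.055 and Bnip3l at 0.065. Over cultures or libraries left out in turn the log2 fold change ran from -0.17 to 0.026 for Egln1, -0.11 to 0.12 for Egln3, -0.21 to 0.070 for Vegfa, -0.43 to 0.045 for Bnip3, -0.20 to 0.092 for Ldha, -0.17 to 0.17 for Cul2, -0.18 to 0.26 for Elob, -0.042 to 0.50 for Egln2, -0.21 to 0.17 for Vegfb, -0.096 to 0.048 for Bnip3l, -0.26 to 0.058 for Hk1 and -0.062 to 0.46 for Pdk3. The differences of the log2 ratios ran from -0.36 to 0.069 for Bnip3 to Bnip3l, -0.11 to 0.27 for Egln3 to Egln1 and -0.092 to 0.19 for Vegfa to Vegfb with each culture left out.

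The deviations of same-named CRE and RFP libraries had a median correlation of 0.027 over 9 pairs, from -0.13 to 0.19. The median was 0.022 over the other pairs. Of the same-named pairs 1 was over 0.1, and 0 CRE libraries were closest to their own number. Whether the numbers pair the libraries was not tested beyond these values. The replicate block left 4 members called with library number as the block (4235 genes) and 4 with same-named libraries as pairs (3121 genes). Libraries that stand apart and low levels of Hk2, Egln3 and Vegfd limit the precision.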
